A study of Mus musculus with 2 samples.

Results

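The genes described here are 9 members of the Bcl2 family that set whether a cell survives, followed through CD11b+ immune cells of the mouse cerebral cortex. They were chosen by name: the rows of the deposited gene lists whose symbol was Mcl1, Bcl2, Bcl2l1, Bcl2a1a, Bcl2a1b, Bcl2a1d, Bax, Bak1 or Bcl2l11. All 9 were found among 55357 genes, each once. Single-cell RNA sequencing (10x Genomics, 3′ chemistry v2) had been run on CD45+CD11b+ cells sorted by flow cytometry after papain digestion and a Percoll gradient. The groups were Msn KO, mice with a knockout of moesin on the C57BL/6 strain, and WT, wild-type mice whose strain the labels do not name. Both groups were 8 weeks old, with no drug treatment named. Each genotype was 1 library made from the pooled cortices of 5 to 6 mice, so that no value below has a replicate check and no difference between genotypes can be told apart from a difference between those pools.

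Bcl2 family proteins meet at the outer membrane of the mitochondrion. Bax and Bak1 are the effectors, which open pores that release cytochrome c and start the caspase cascade. Mcl1, Bcl2, Bcl2l1 (BCL-XL) and the Bcl2a1 paralogs (A1) are anti-apoptotic and hold the effectors and their activators in check, while Bcl2l11 (BIM) is a BH3-only protein that binds the anti-apoptotic members and can activate the effectors. MCL1 and A1 proteins turn over quickly, so a cell's dependence on them follows current synthesis, and microglia, neutrophils, monocytes and lymphocytes are known to lean on different anti-apoptotic members. Moesin, missing in the knockout, links the actin cortex to membrane proteins.

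The 3 Bcl2a1 genes are mouse copies of one ancestral gene on chromosome 9, and how far they differ in sequence bears on how well their reads can be told apart. The stretches shown are the 90 bases from the start codon of each, in GRCm39, at chr9:88839104-88839193 on the plus strand for Bcl2a1a, chr9:89081413-89081502 on the plus strand for Bcl2a1b and chr9:88613683-88613772 on the minus strand for Bcl2a1d. Capitals mark the 6 positions in this stretch at which the copies differ, of 12 such positions in the 516 coding bases.
Bcl2a1a: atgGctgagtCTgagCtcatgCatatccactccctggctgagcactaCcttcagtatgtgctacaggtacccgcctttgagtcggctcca
Bcl2a1b: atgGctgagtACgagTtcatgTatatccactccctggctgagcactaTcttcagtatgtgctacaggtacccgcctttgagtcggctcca
Bcl2a1d: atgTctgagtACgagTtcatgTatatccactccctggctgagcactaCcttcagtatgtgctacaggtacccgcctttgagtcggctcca
Over the whole coding sequence Bcl2a1a was 97.9% identical to Bcl2a1b and 98.6% identical to Bcl2a1d, and Bcl2a1b was 98.8% identical to Bcl2a1d. Near the 3′ ends, where these libraries are read, the share of 90-base windows found exactly in another gene was 39.7% for Bcl2a1a, 64.5% for Bcl2a1b and 65.7% for Bcl2a1d, over the last 500 bases of each transcript. For Bcl2a1b this share includes Gm29094, an annotated gene that overlaps it on the same strand, and without it the share was 37.7%. The other 6 members shared no such window with any gene. A read that falls in a shared window cannot be assigned to 1 copy, so the split between the 3 genes is less certain than their sum, and the sum misses reads that were dropped as ambiguous.

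The starts of the 3 copies are also alike, and they are shown because the copies are compared below for whether their levels move together. The windows run from 250 bases before to 50 after the start, from RefSeq on GRCm38.p6, at chr9:88956670-88956969 on the plus strand for Bcl2a1a, chr9:89199023-89199322 on the plus strand for Bcl2a1b and chr9:88731801-88732100 on the minus strand for Bcl2a1d. Capitals mark GAGGAA, the core of the element bound by PU.1, a transcription factor of myeloid cells, and its reverse complement.
Bcl2a1a: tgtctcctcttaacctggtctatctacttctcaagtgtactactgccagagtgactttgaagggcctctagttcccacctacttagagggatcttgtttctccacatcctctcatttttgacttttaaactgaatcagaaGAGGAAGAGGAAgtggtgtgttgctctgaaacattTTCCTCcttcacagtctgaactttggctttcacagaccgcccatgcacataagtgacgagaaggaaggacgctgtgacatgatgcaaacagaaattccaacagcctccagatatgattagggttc
Bcl2a1b: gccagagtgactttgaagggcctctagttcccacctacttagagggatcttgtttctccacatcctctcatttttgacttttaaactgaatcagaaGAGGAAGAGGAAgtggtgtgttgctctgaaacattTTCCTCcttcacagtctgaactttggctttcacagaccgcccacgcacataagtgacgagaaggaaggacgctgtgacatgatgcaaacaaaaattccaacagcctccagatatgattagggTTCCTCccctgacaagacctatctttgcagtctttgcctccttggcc
Bcl2a1d: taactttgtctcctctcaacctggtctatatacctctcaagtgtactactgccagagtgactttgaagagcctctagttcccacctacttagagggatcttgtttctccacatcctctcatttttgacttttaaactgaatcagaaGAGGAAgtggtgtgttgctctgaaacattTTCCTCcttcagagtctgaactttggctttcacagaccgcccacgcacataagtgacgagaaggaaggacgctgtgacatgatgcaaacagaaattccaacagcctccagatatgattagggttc
Where the windows could be aligned, Bcl2a1a and Bcl2a1b were 99.2% identical over 256 columns, Bcl2a1a and Bcl2a1d 96.0% over 300 columns, and Bcl2a1b and Bcl2a1d 96.5% over 256 columns. GAGGAA stood 2 times in a row in Bcl2a1a and Bcl2a1b and 1 time in Bcl2a1d. On the other strand it stood 1, 2 and 1 times, and none of these copies overlapped. Of 32851 RefSeq promoters of this length, 28.3% hold the motif on either strand, so its presence is a description of these windows only.

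The other members lie apart in the genome. In GRCm39, Mcl1 (ENSMUSG00000038612) lies at chr3:95566026-95570487 on the plus strand, Bcl2 (ENSMUSG00000057329) at chr1:106465908-106642060 on the minus strand and Bcl2l1 (ENSMUSG00000007659) at chr2:152622582-152673655 on the minus strand. Bax (ENSMUSG00000003873) lies at chr7:45111015-45116325 and Bak1 (ENSMUSG00000057789) at chr17:27238784-27247983, both on the minus strand, and Bcl2l11 (ENSMUSG00000027381) at chr2:127967958-128004476 on the plus strand. The genes of Bcl2a1a (ENSMUSG00000102037), Bcl2a1b (ENSMUSG00000089929) and Bcl2a1d (ENSMUSG00000099974) span chr9:88838953-88844472, chr9:89081262-89089889 and chr9:88605338-88613967. Bax overlaps the annotated gene Gm45808 on its own strand, and Bcl2 and Bcl2l11 each hold other annotated genes on theirs.

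Cells were grouped by pairs of marker genes, each with at least 1 UMI (a tag that counts 1 RNA molecule): microglia by P2ry12 and Tmem119, patrolling monocytes by Ace and Treml4, classical monocytes by Ly6c2 and Ccr2, border macrophages by Mrc1 and Pf4, and NK cells by Ncr1 and Nkg7. Levels are UMIs summed over a class in a library and scaled to the same total in every class (CPM, the usual unit), with an exact 95% Poisson interval that covers counting error only. Cells passing several gates were left out: 1068 of 7573 cells in Msn KO and 246 of 5577 in WT. The classes held 4666 Msn KO and 5031 WT microglia, 419 and 26 patrolling monocytes, 97 and 20 classical monocytes, 135 and 25 border macrophages, and 61 and 0 NK cells. The WT values outside microglia therefore rest on few cells.

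Msn itself stood at 20.7 CPM in Msn KO microglia, against 321 CPM in WT microglia, and was likewise lower in Msn KO in the 3 other classes present in both libraries. Markers that the gates did not use were high in the classes they name: 7 microglial markers summed to 19570 CPM in Msn KO microglia and 17765 CPM in WT microglia, and 676 and 953 CPM in patrolling monocytes. The border class also carried them, at 3434 CPM in Msn KO and 1891 CPM in WT, beside 3292 and 3621 CPM of its own markers, and 731 of the 866 Msn KO cells and 200 of the 225 WT cells that passed its gate passed another gate too. The NK class carried 256 CPM of T cell markers, against 23056 CPM of its own. Microglia of the Msn KO library carried neutrophil markers at 546 CPM against 71.5 CPM in WT microglia and erythroid markers at 594 against 79.1 CPM. Patrolling monocyte markers stood at 138 against 56.7 CPM, with Nr4a1 alone at 65.0 against 32.9 CPM. Classical monocyte markers stood at 61.3 against 9.06 CPM, NK cell markers at 24.2 against 5.06 CPM and choroid plexus markers at 77.5 against 1.06 CPM. B cell, T cell and dendritic cell markers were also higher in Msn KO, at 71.5 CPM or less. The summed border macrophage markers went the other way, at 198 against 247 CPM, with Stab1 alone at 180 against 243 CPM. Cd163, Lyve1, Cbr2, Clec4n and Ms4a7 were each higher in Msn KO microglia, at 6.36 CPM or less. Summed endothelial, oligodendrocyte, astrocyte, neuron and cycling cell markers were lower in Msn KO, at 58.2 CPM or less. Microglia had a median of 5627 UMIs per cell in Msn KO and 7265 in WT, and a median mitochondrial share of 0.472% and 1.40%. The libraries shared 13 cell barcodes. C1qa, a complement gene of microglia, gave the level that free RNA can reach in other cells: it stood in patrolling monocytes at 3.10% of its microglial level in Msn KO and 5.39% in WT, and in classical monocytes at 2.08% and 3.47%.

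Mcl1 was the most abundant anti-apoptotic transcript in 4 of the 5 classes of the Msn KO library by UMIs, which count a molecule once whatever its length, with the summed Bcl2a1 paralogs ahead of it in patrolling monocytes. In Msn KO it stood at 1213 CPM in classical monocytes (95% interval 1142 to 1288), 974 in patrolling monocytes (933 to 1016), 884 in microglia (874 to 894), 830 in border macrophages (751 to 914) and 417 in NK cells (349 to 495). In WT it stood at 1069 CPM in classical monocytes, 974 in patrolling monocytes, 876 in microglia and 602 in border macrophages. The order of the classes was the same in both libraries, and neighbouring intervals overlapped between microglia and border macrophages in Msn KO, and between the 2 monocyte classes and between patrolling monocytes and microglia in WT. With each cell thinned to 2000 UMIs, 57.4% of NK cells had at least 1 Mcl1 UMI, against 76.7% of Msn KO microglia and 78.0% of WT microglia. Unthinned, these shares were 90.2%, 90.6% and 95.6%.

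**Figure D1:**
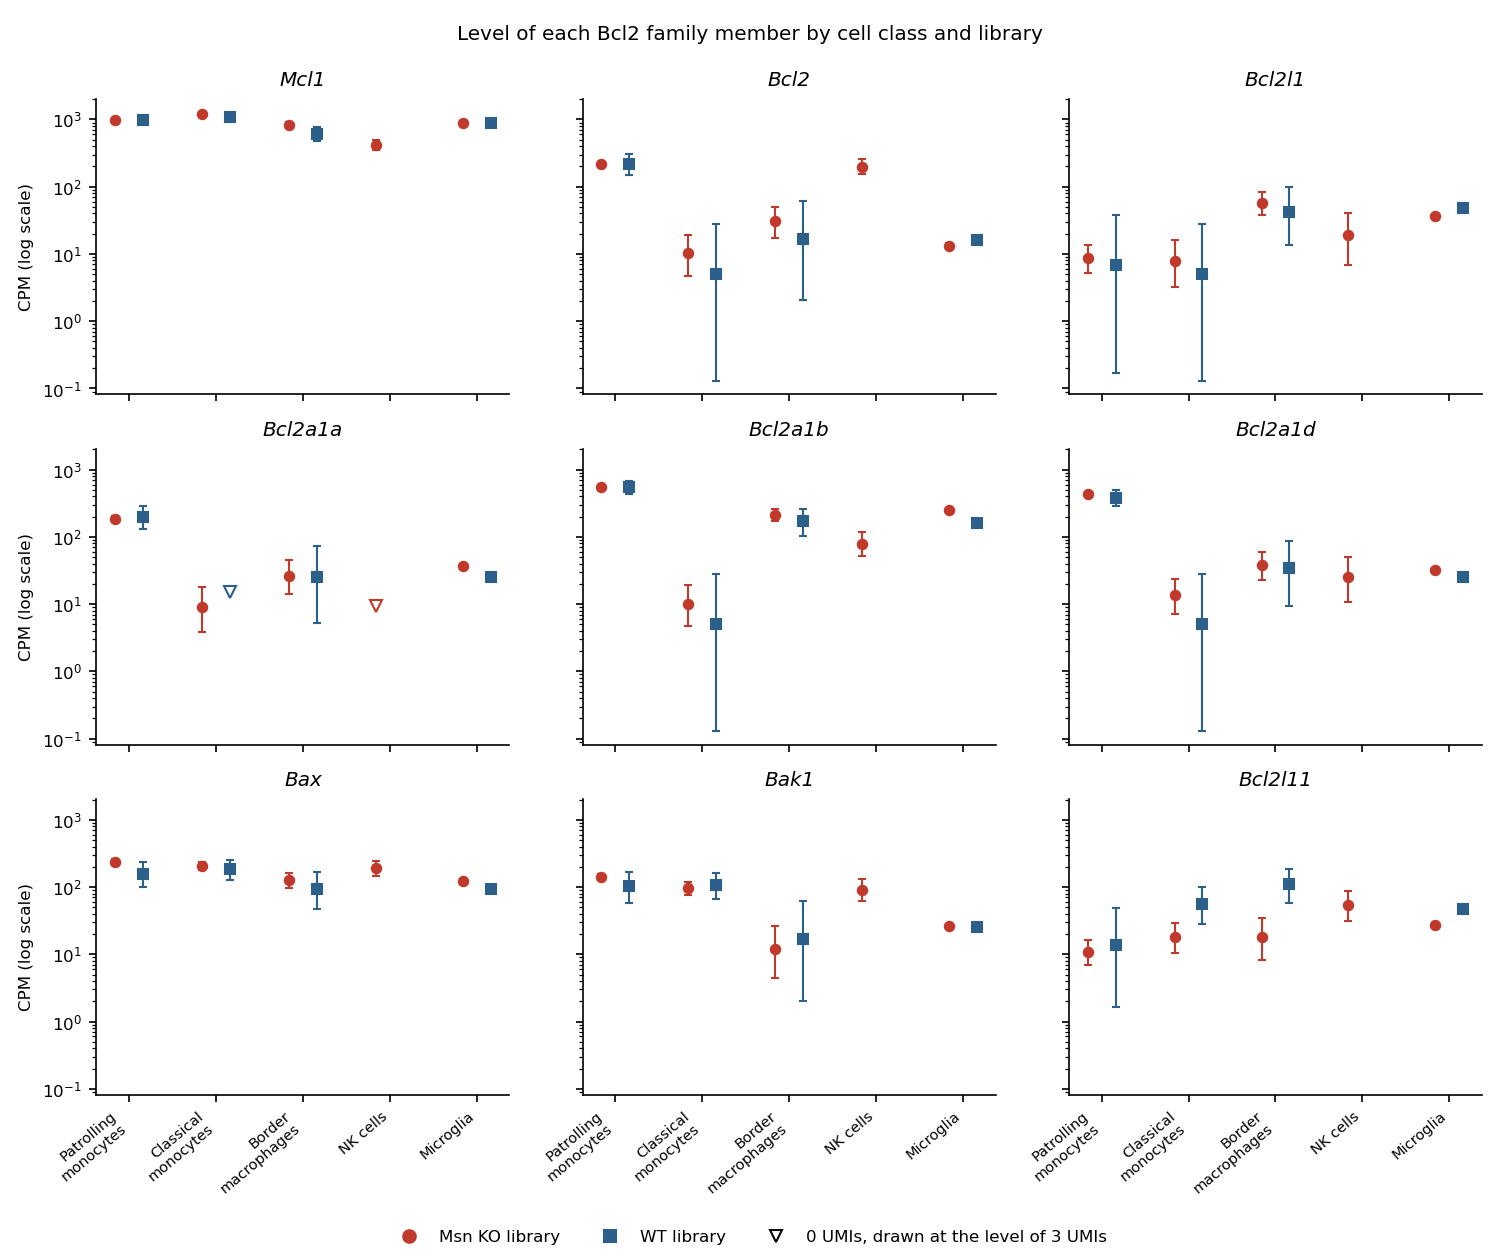
Level of each of the 9 genes by class (CPM, log axis), with Msn KO as circles left of WT as squares and bars for the exact 95% Poisson interval of the count. Open triangles mark a class with 0 UMIs, drawn at the level of 3 UMIs. Mcl1 lies between 417 and 1213 CPM in all classes, while Bcl2 is near 200 CPM in patrolling monocytes and NK cells and at 30.4 CPM or less elsewhere.

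Bcl2, the founding anti-apoptotic member, was present mainly in 2 of the classes. It reached 216 CPM (197 to 236) in Msn KO patrolling monocytes and 218 CPM (149 to 308) in WT patrolling monocytes, and 199 CPM (153 to 255) in Msn KO NK cells, whose interval overlapped that of patrolling monocytes. Classical monocytes held 10.2 CPM in Msn KO and 5.09 CPM in WT, where it was 1 UMI, against 13.2 CPM in Msn KO and 15.996 CPM in WT microglia. After thinning to 2000 UMIs, Bcl2 was seen in 33.1% of 411 Msn KO and 52.0% of 25 WT patrolling monocytes, against 2.34% of 4320 Msn KO and 3.29% of 4895 WT microglia; unthinned, the shares were 59.9% and 73.1%, against 8.96% and 15.6%. In the 97 Msn KO classical monocytes, with a median of 8737 UMIs against 5014 in patrolling monocytes, the thinned share was 2.06% and the unthinned share 8.25%.

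Bcl2l1, the gene of the long-lived anti-apoptotic protein BCL-XL, ran the other way in patrolling monocytes. Patrolling monocytes held 8.64 CPM in Msn KO and 6.81 CPM in WT, and classical monocytes 7.94 and 5.09 CPM, with 1 UMI behind each of the WT values. Border macrophages held 56.8 and 42.4 CPM. Msn KO NK cells held 18.96 CPM (6.96 to 41.3, from 6 UMIs), with an interval that overlapped the microglial one. Microglia held 36.7 CPM (34.8 to 38.7) in Msn KO and 48.9 CPM (47.2 to 50.7) in WT. The border and microglial intervals overlapped in both libraries, and those of the monocytes lay below the microglial ones.

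The Bcl2a1 paralogs, NF-kB-inducible anti-apoptotic genes of blood cells, together reached 1160 CPM (1115 to 1205) in Msn KO patrolling monocytes and 1123 CPM (958 to 1308) in WT patrolling monocytes. Border macrophages held 278 CPM in Msn KO and 229 CPM in WT, and Msn KO NK cells 104 CPM. Classical monocytes were the lowest class, with 32.9 CPM (22.0 to 47.2) in Msn KO and 10.2 CPM (1.23 to 36.8, from 2 UMIs) in WT. Microglia held 316 CPM (311 to 322) in Msn KO and 213 CPM (209 to 216) in WT, with intervals that overlapped those of border macrophages. After thinning, 81.8% of Msn KO and 88.0% of WT patrolling monocytes had a UMI of any paralog, against 42.4% and 33.9% of microglia; unthinned, the shares were 93.3% and 92.3%, against 71.6% and 73.3%. In Msn KO classical monocytes 4 of 97 cells had one after thinning. Classical monocytes held Bcl2a1b at 4.12% of its microglial level in Msn KO and 3.14% in WT, beside 2.08% and 3.47% for C1qa. Bcl2a1a and Bcl2a1d stood there at 24.6% and 42.7% of their microglial levels in Msn KO, from 8 and 12 UMIs. How much of these counts was free RNA was not tested.

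Both effectors were highest in the monocytes. Bax stood at 239 CPM in patrolling monocytes, 207 in classical monocytes, 190 in NK cells, 128 in border macrophages and 125 in microglia of the Msn KO library, and at 157, 183, 93.3 and 94.7 CPM in the patrolling, classical, border and microglial cells of the WT library. Each neighbouring pair in the Msn KO order of Bax overlapped in its intervals. Bak1 stood at 142 CPM in Msn KO and 102 CPM in WT patrolling monocytes, 95.2 and 107 CPM in classical monocytes, and 91.6 CPM in Msn KO NK cells. In border macrophages it was at 12.2 CPM in Msn KO and 16.96 CPM in WT, and in microglia at 26.1 and 25.5 CPM. The monocyte and NK intervals of Bak1 lay apart from the microglial interval in each library, while the WT patrolling and classical intervals overlapped.

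Bcl2l11, the BH3-only member, was at 56.0 CPM or less in every class except WT border macrophages. In Msn KO it ranged between 10.9 CPM in patrolling monocytes and 53.7 CPM in NK cells, with 27.6 CPM in microglia (25.9 to 29.3). In WT it ranged between 13.6 CPM in patrolling monocytes, from 2 UMIs, and 110 CPM in border macrophages, from 13 UMIs, with 46.5 CPM in microglia (44.8 to 48.3). Only the NK interval stood apart from its neighbour in the Msn KO order, and no neighbouring pair did so in the WT order.

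Against microglia of the same library, patrolling monocytes had 6 of the 9 genes at least 1.5-fold higher in both libraries, and 2 at least 1.5-fold lower. Of all genes at 10 CPM or more in either sum, 22.6% of 8452 were that much higher and 42.7% lower in Msn KO, and 25.9% of 9408 higher and 34.7% lower in WT. The 6 higher genes were the same in both libraries: Bcl2 at 16.3-fold in Msn KO and 13.6-fold in WT, Bcl2a1d at 13.4-fold and 15.1-fold, Bak1 at 5.45-fold and 4.00-fold, Bcl2a1a at 4.95-fold and 7.77-fold, Bcl2a1b at 2.21-fold and 3.36-fold, and Bax at 1.92-fold and 1.65-fold. Anti-apoptotic and pro-death members were thus both among them. Bcl2l1 was 4.25-fold lower in Msn KO and 7.18-fold lower in WT, and Bcl2l11 2.53-fold and 3.42-fold lower, the WT values resting on 1 and 2 UMIs. Mcl1 was within 1.5-fold in both libraries. The member median of the log2 ratio was 1.15 in Msn KO and 1.75 in WT, against medians of -0.37 and -0.34 over all genes.

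Classical monocytes, like patrolling monocytes, had both effectors higher than microglia, Mcl1 within 1.5-fold and Bcl2l1 lower, but Bcl2 and the Bcl2a1 genes were not higher. Bax was 1.66-fold higher than in microglia in Msn KO and 1.93-fold in WT, and Bak1 3.65-fold and 4.19-fold, the only 2 members past 1.5-fold upward, beside a background of 21.8% higher and 45.1% lower genes in Msn KO and 24.2% and 39.5% in WT. In each library 5 members were lower: Bcl2l1 and the Bcl2a1 genes in both, with Bcl2l11 in Msn KO and Bcl2 in WT. The WT calls rested on 1 UMI each, or on 0 for Bcl2a1a. The intervals of Bcl2l11 in Msn KO and of Bcl2 and Bcl2a1d in WT allowed a difference in either direction. Bcl2a1b was 24.3-fold lower in Msn KO and 31.8-fold lower in WT, the WT value resting on 1 UMI. Set directly against classical monocytes, patrolling monocytes had 4 of 8 measured members higher and 1 lower in each library, beside backgrounds of 22.7% higher and 18.8% lower in Msn KO and 28.4% and 18.6% in WT. In Msn KO, Bcl2a1b was 53.8-fold higher (log2 5.75), Bcl2a1d 31.5-fold, Bcl2 21.2-fold and Bcl2a1a 20.1-fold. The WT library had the same 4 genes higher, with 1 UMI of Bcl2, Bcl2a1b and Bcl2a1d and none of Bcl2a1a in its 20 classical monocytes.

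NK cells, present in the Msn KO library only (0 of 5577 WT cells, which allows a share of up to 0.0661%), had Bcl2, Bak1 and Bax higher than microglia, as patrolling monocytes did. Bcl2 was 15.03-fold higher than in microglia, Bak1 3.51-fold, Bcl2l11 1.95-fold and Bax 1.52-fold, and 4 members were lower, beside a background of 27.4% higher and 39.4% lower genes. The lower members were Mcl1 by 2.12-fold, Bcl2a1b by 3.14-fold, Bcl2l1 by 1.94-fold and Bcl2a1a, which had 0 UMIs (up to 11.7 CPM) against 36.9 CPM in microglia. The Bcl2l1 value rested on 6 UMIs, and its log2 interval of -2.40 to 0.17 allowed a difference in either direction. C1qa stood in NK cells at 4.19% of its microglial level, and Bcl2a1b at 31.9%.

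Border macrophages were closest to microglia. In Msn KO they had 2 members higher and 2 lower, beside a background of 16.8% higher and 26.2% lower genes, and in WT 1 higher and 1 lower, beside 22.8% and 28.5%. No member was past 1.5-fold in the same direction in both libraries except Bak1, at 2.14-fold lower in Msn KO and 1.504-fold lower in WT from 6 and 2 UMIs. Both Bak1 intervals allowed a difference in either direction. Bcl2l11 was 1.51-fold lower in Msn KO and 2.37-fold higher in WT. C1qa was at 81.6% of its microglial level in this class in Msn KO and 80.0% in WT, and how much of the class's RNA came from microglia was not tested.

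**Figure D2:**
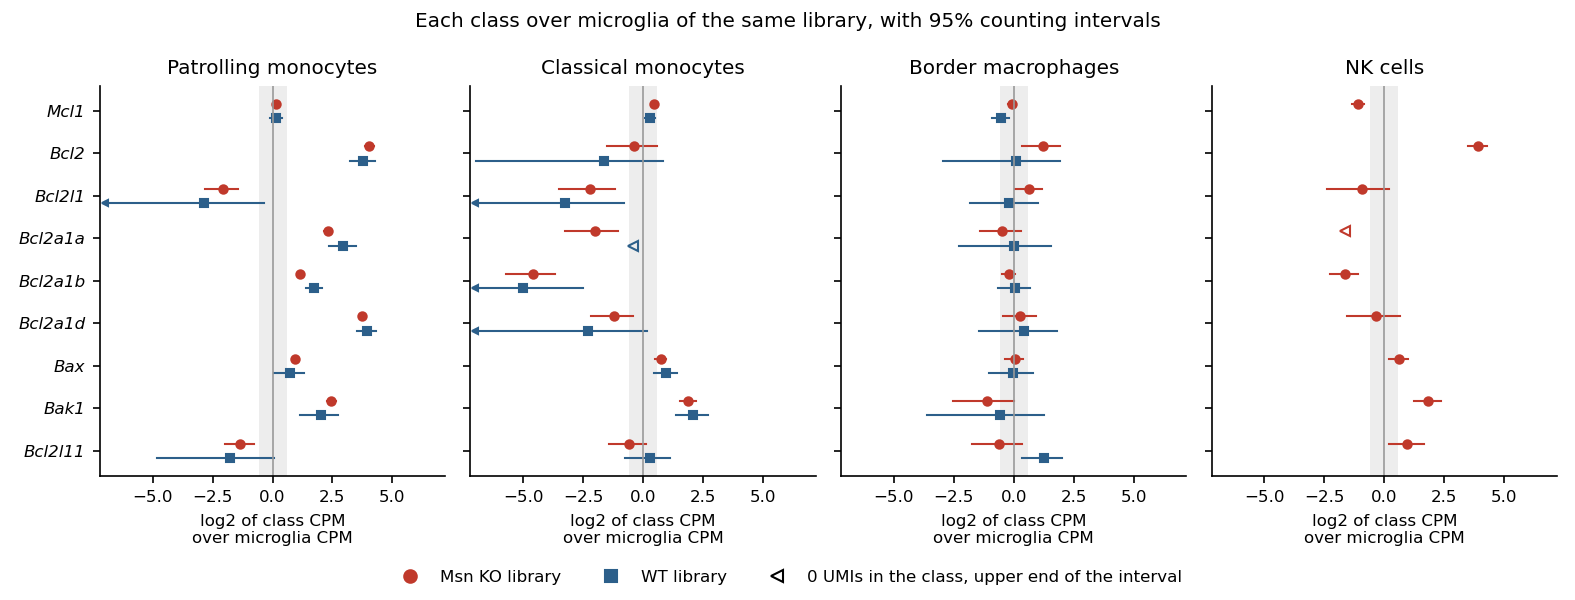
Log2 ratio of each gene's CPM in a class over microglia of the same library, 1 panel per class, with Msn KO as circles and WT as squares, bars for the exact 95% interval of the ratio and a grey band for 1.5-fold. Patrolling monocytes lie above the band for Bcl2, the 3 Bcl2a1 copies, Bax and Bak1 in both libraries, and classical monocytes only for Bax and Bak1.

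The 3 Bcl2a1 copies did not contribute in the same proportion in every class. In patrolling monocytes Bcl2a1b supplied 47.3% (45.4 to 49.3) of the paralogs' UMIs in Msn KO and 48.5% (40.6 to 56.4) in WT, against 78.3% (77.5 to 79.0) in Msn KO microglia and 76.2% (75.4 to 76.9) in WT microglia. The difference went to Bcl2a1d, at 36.9% and 33.9% in patrolling monocytes, against 10.1% and 11.9% in microglia, while Bcl2a1a was at 15.8% and 17.6%, against 11.7% and 11.95%. The exact binomial intervals of Bcl2a1b and Bcl2a1d in patrolling monocytes did not overlap those in microglia, in either library. Border macrophages resembled microglia, with 76.6% Bcl2a1b in Msn KO and 74.1% in WT, and NK cells had 75.8% of 33 UMIs. The part of reads in shared windows in these shares was not tested.

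**Figure D3:**
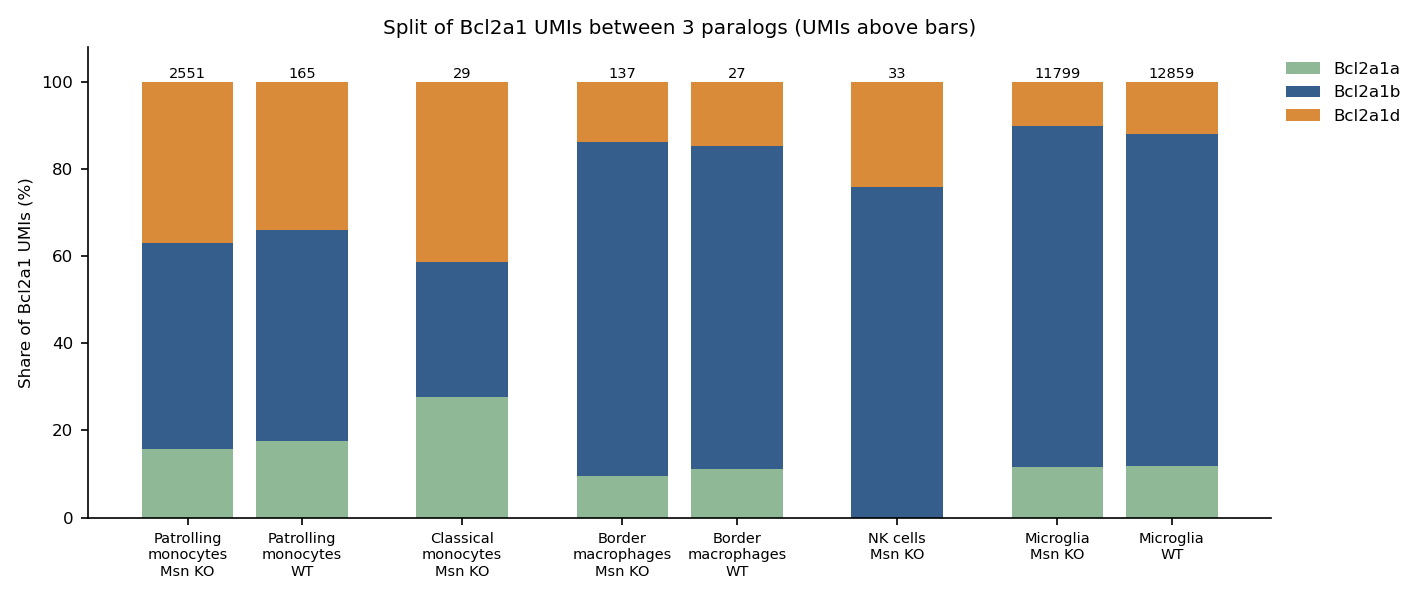
Share of the summed Bcl2a1 UMIs given by Bcl2a1a, Bcl2a1b and Bcl2a1d in each class and library, in percent, with the number of UMIs above each bar. Classical monocytes of WT are not drawn, with 2 UMIs. Bcl2a1d takes 36.9% and 33.9% of the patrolling monocyte bars and 10.1% and 11.9% of the microglial bars.

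Between genotypes, the members with the highest ratios in microglia were the Bcl2a1 genes and Bax, and the one with the lowest was Bcl2l11. The median log2 ratio of Msn KO over WT was -0.30 over the 8724 genes at 10 CPM or more in either library, so ratios are given relative to that median, with plain CPM beside them. Relative to it, 4 members were at least 1.5-fold higher in Msn KO and 0 lower, beside a background of 15.3% higher and 12.5% lower. Bcl2a1b stood at 248 CPM in Msn KO microglia and 162 CPM in WT microglia, a relative log2 ratio of 0.91 (0.87 to 0.95). Bcl2a1a stood at 36.9 and 25.4 CPM (0.83), Bax at 125 and 94.7 CPM (0.69) and Bcl2a1d at 31.9 and 25.2 CPM (0.63). On the plain CPM scale 1 member, Bcl2a1b at 1.53-fold, was past 1.5-fold upward and 1 member, Bcl2l11 at 1.69-fold, downward, beside a background of 4.75% higher and 30.5% lower. All 4 genes were higher on both scales, and 3 of them fell short of 1.5-fold on the plain one.

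Mcl1 stood at 884 CPM (874 to 894) in Msn KO microglia and 876 CPM (869 to 884) in WT microglia, so its plain ratio was near 1 and its relative log2 ratio was 0.31. Bak1 had 26.1 and 25.5 CPM (relative 0.33), Bcl2 13.2 and 15.996 CPM (0.02) and Bcl2l1 36.7 and 48.9 CPM (-0.12). The direction of Bcl2 turned with the scaling, with a plain log2 ratio of -0.27, and the plain ratios of Mcl1 and Bak1 were 0.01 and 0.03. Bcl2l11 was lower on both scales, at 27.6 CPM in Msn KO and 46.5 CPM in WT, with a plain log2 ratio of -0.75 (-0.86 to -0.65) and a relative one of -0.46. Thinned to 2000 UMIs, Bcl2l11 was seen in 5.49% of Msn KO and 8.70% of WT microglia, Bcl2a1b in 35.9% and 27.3%, and Bax in 22.3% and 16.9%. Unthinned, these shares were 17.8% and 35.4%, 64.7% and 64.8%, and 52.1% and 54.8%, at the unequal depths of the libraries.

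Neutrophils express Bcl2a1 genes too, as did the patrolling monocytes here, and markers of both were higher in Msn KO microglia, as given above. Classical monocyte markers were also higher there, but classical monocytes held little Bcl2a1, at 32.9 CPM in Msn KO and 10.2 CPM in WT. In the 2928 Msn KO and 4158 WT microglia with no UMI of a neutrophil, classical monocyte, NK cell or erythroid marker, the relative log2 ratio was 0.84 for Bcl2a1b, 0.70 for Bcl2a1a and 0.65 for Bax. Bcl2a1d was at 0.38 there and no longer past 1.5-fold, with 27.8 CPM in Msn KO and 26.0 CPM in WT. Leaving out patrolling monocyte markers as well, except Nr4a1, in 2406 and 3428 cells, gave 0.84, 0.75, 0.65 and 0.42. These alternatives were chosen after the data were seen. Bcl2l11 remained lower, at a relative log2 ratio of -0.54 in the first selection and -0.50 in the second.

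**Figure D4:**
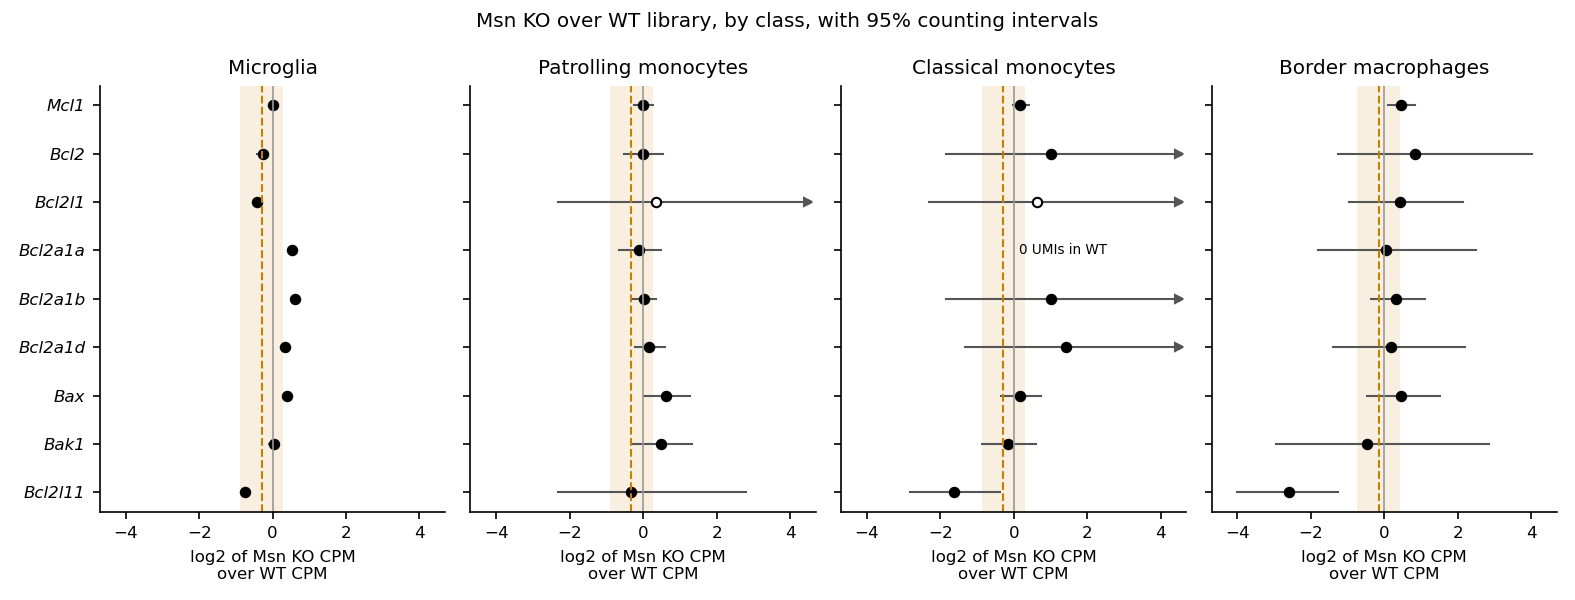
Log2 ratio of Msn KO over WT in plain CPM for each gene in 4 classes, with bars for the exact 95% interval, a dashed line for the median of all genes and a band for 1.5-fold around it; open symbols are genes under 10 CPM in both libraries. In microglia the 3 Bcl2a1 copies and Bax lie above the band around -0.30, and Bcl2l11 lies lowest at -0.75.

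The other classes had too few WT cells for narrow values. In patrolling monocytes 2 of 8 measured members were past 1.5-fold upward relative to the median and 0 downward, beside a background of 24.9% and 26.6%: Bax at 239 CPM in Msn KO and 157 CPM in WT (relative log2 0.93) and Bak1 at 142 and 102 CPM (0.80). On plain CPM 1 was, beside 15.3% higher and 38.6% lower. The Bcl2a1 genes, Bcl2 and Mcl1 were within 1.5-fold there on either scale. In classical monocytes 3 of 7 measured members were higher and 1 lower, beside 24.5% and 27.3% (plain 3 and 1, beside 15.5% and 36.7%), the 3 higher ones with 1 UMI each in WT. In border macrophages 3 of 9 were higher and 1 lower, beside 23% and 31.7% (plain 1 and 1, beside 17.7% and 35.3%). The lower gene was Bcl2l11 in both: 18.1 CPM in Msn KO and 56.0 CPM in WT classical monocytes (plain log2 -1.63, -2.82 to -0.37), and 18.3 and 110 CPM in border macrophages (-2.59, -4.00 to -1.26). In patrolling monocytes Bcl2l11 had 10.9 CPM in Msn KO and 13.6 CPM in WT, with an interval from -2.33 to 2.81 that allows a difference in either direction.

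Within microglia, the Bcl2a1 genes varied with the cells' state. States were the 5% of microglia with at least 2000 UMIs that scored highest on a short gene list, each set against the other 95% of the same library (216 against 4104 cells in Msn KO, 245 against 4650 in WT). In the chemokine state, defined by Ccl3 and Ccl4, which microglia release on activation, Bcl2a1b stood at 391 CPM against 242 CPM in Msn KO and at 283 CPM against 158 CPM in WT. Bcl2a1d stood at 53.3 against 31.0 CPM in Msn KO and 44.7 against 24.5 CPM in WT. Of the 9 members, 3 were past 1.5-fold upward in Msn KO and 3 in WT, beside backgrounds of 2.36% and 2.32%, and none downward, beside 3.57% and 2.53%. Bcl2a1b and Bcl2a1d were among them in both libraries. Bcl2l1 was past it in Msn KO alone (60.9 against 35.5 CPM, log2 0.78, with -0.01 in WT), and Bcl2a1a in WT alone (log2 0.78, with 0.40 in Msn KO). Neutrophil markers were lower in this state, at 21.7 CPM against 577 CPM in Msn KO and 4.91 against 74.0 CPM in WT. Patrolling monocyte markers, summed in the states without Nr4a1, stood at 51.5 against 74.2 CPM in Msn KO and 22.1 against 23.9 CPM in WT.

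In the disease-associated state, scored by Lpl, Cst7, Clec7a, Spp1 and Itgax, 2 members were past 1.5-fold in Msn KO and 3 in WT, all upward, beside backgrounds of 4.06% and 2.09% higher (3.01% and 0.802% lower). Bcl2a1a stood at 63.5 against 35.7 CPM in Msn KO and 37.5 against 24.8 CPM in WT, and Bcl2a1d at 49.2 against 31.3 CPM and 47.4 against 24.1 CPM. In Msn KO the state also carried more RNA of other cells. Patrolling monocyte markers, again without Nr4a1, stood at 143 against 70.0 CPM and neutrophil markers at 1059 against 528 CPM. Their part in the result was not tested. In WT patrolling monocyte markers stood at 22.8 against 23.9 CPM and neutrophil markers at 138 against 68.3 CPM. In the interferon state, scored by Ifit1, Ifit2 and Ifit3, the one member past 1.5-fold was Bcl2a1d in Msn KO (49.8 against 31.2 CPM, beside backgrounds of 3.44% higher and 2.04% lower there and 1.77% and 0.622% in WT), where neutrophil markers stood at 2604 against 458 CPM.

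Mcl1, whose gene is known to be induced within minutes to hours by many stimuli, differed most in the immediate early state, scored by Fos, Jun and Egr1. It stood at 1286 against 873 CPM in Msn KO (log2 0.56, 0.48 to 0.63) and 1121 against 869 CPM in WT (0.37, 0.31 to 0.43), under 1.5-fold in both. No member was past 1.5-fold in the immediate early state, beside backgrounds of 2.71% higher and 4.98% lower in Msn KO and 0.967% and 2.07% in WT. The same held for the heat shock state, scored by Hspa1a and Hspa1b (3.07% and 3.28% in Msn KO, 1.07% and 0.979% in WT). It held also for microglia with 15000 or more UMIs against the rest (0.214% and 0.189% in Msn KO, 0.0574% and 0.103% in WT). With the top 10% of microglia in place of 5%, only 4 of the 12 state values remained past 1.5-fold: Bcl2a1b in the chemokine state of Msn KO (log2 0.59), Bcl2a1d in the chemokine state of WT (0.75), and Bcl2a1d in the disease-associated state of Msn KO (0.65) and of WT (0.60).

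**Figure D5:**
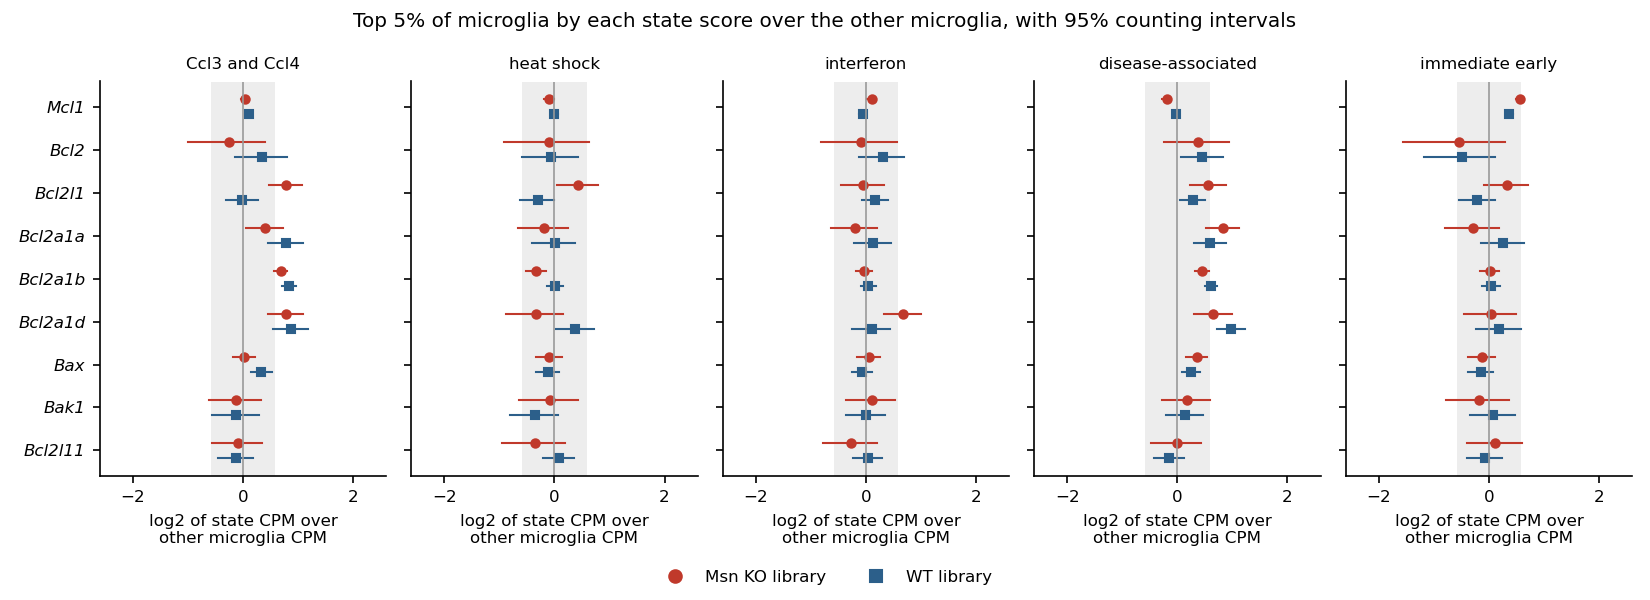
Log2 ratio of each gene's CPM in 5 microglial states over the other microglia of the same library, with Msn KO as circles, WT as squares, bars for the exact 95% interval and a grey band for 1.5-fold. Bcl2a1b and Bcl2a1d lie above the band in the Ccl3 and Ccl4 state of both libraries (0.69 and 0.84, 0.78 and 0.87), and Mcl1 is highest in the immediate early state.

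Cell-to-cell spread beyond sampling could be read only for the more abundant members. Bcl2, Bcl2l1, Bcl2a1a, Bcl2a1d, Bak1 and Bcl2l11 averaged 0.0968 UMIs or less per thinned microglial cell. At such means the ratio of variance to mean stays near 1 even where levels differ between cells, so it cannot show their spread. In microglia thinned to 2000 UMIs the variance over the mean of UMIs per cell was 1.39 in Msn KO and 1.31 in WT for Mcl1. For Bcl2a1b it was 1.27 and 1.12, against medians of 1.02 and 1.03 over all measured genes. These medians were not matched for mean, which was 1.73 UMIs for Mcl1 in both libraries. Mcl1 was seen in 79.0% of Msn KO microglia with a Bcl2a1b UMI and 75.4% of those without, and in 77.8% and 78.1% in WT; the intervals overlapped in both libraries.

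The wider death pathway was read from lists chosen by function. Of 7 measured BH3-only and effector relatives, 3 were higher in Msn KO than in WT microglia relative to the median of all genes and 1 lower, beside the 15.3% and 12.5% given above. Bad, a BH3-only sensor of growth factor signals, stood at 41.3 CPM in Msn KO and 27.4 CPM in WT (0.89), and the mitophagy receptors Bnip3 and Bnip3l at 0.79 and 0.71. Bmf, a BH3-only gene linked to loss of cell attachment and to the actin cytoskeleton, stood at 16.9 and 37.6 CPM (-0.86). On the plain scale Bmf and Bad were the genes of this list past 1.5-fold, downward and upward.

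Among 10 apoptosome and caspase genes 2 were higher and 1 lower. For this list and those that follow, 15.3% of all genes were higher and 12.5% lower. No list was read as standing apart from these shares. Cycs, which encodes the cytochrome c that the effector pores release, stood at 86.9 CPM in Msn KO and 58.1 CPM in WT microglia (0.88), Htra2, a mitochondrial protease, at 86.9 and 67.6 CPM (0.66), and Apaf1, the apoptosome scaffold, at 10.6 and 21.1 CPM (-0.70). The list of 5 caspase inhibitors had 0 higher and 1 lower, Birc6 at 61.0 and 121 CPM (-0.69). Of 2 measured anti-apoptotic relatives Bcl2l12 was higher (22.7 and 16.05 CPM, 0.80), and of 4 measured death receptor genes the adaptor Tradd was (19.98 and 15.9 CPM, 0.63). Of 11 measured upstream genes 2 were higher and 0 lower. These were Nfkbia, an NF-kB inhibitor that NF-kB itself induces, at 1879 CPM in Msn KO and 1211 CPM in WT microglia (0.93), and the cytokine receptor chain Il2rg at 10.49 and 6.93 CPM (0.89). On plain CPM the counts over all 6 lists were 3 higher (Bad, Nfkbia, Il2rg) and 9 lower, beside 4.75% and 30.5% of all genes. The lists held 2, 7, 10, 5, 4 and 11 measured genes.

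The same lists were read in patrolling monocytes against microglia, and the genes named here were picked after their values were seen. Pmaip1 (NOXA), a BH3-only protein that neutralises MCL1 and A1, stood at 95.002 CPM against 11.9 CPM in microglia in Msn KO and at 95.3 against 16.2 CPM in WT. Il2rg stood at 142 against 10.49 CPM and 211 against 6.93 CPM, and Cycs at 315 against 86.9 CPM and 191 against 58.1 CPM. Csf1r, the receptor for the growth factor that microglia need to survive, was lower, at 719 against 2724 CPM in Msn KO and 1212 against 3439 CPM in WT. By list, patrolling monocytes had 1 of 7 BH3-only and effector relatives higher and 3 lower in Msn KO (2 and 2 in WT), beside 22.6% higher and 42.7% lower among all genes in Msn KO and 25.9% and 34.7% in WT. The apoptosome and caspase genes had 4 of 10 higher and 3 lower in both libraries, and the death receptor genes 3 of 5 higher and 1 lower in Msn KO (4 and 0 in WT). The caspase inhibitors had 1 of 5 higher and 1 lower in Msn KO (2 and 1 in WT), the upstream genes 2 of 11 higher and 3 lower (2 and 4 in WT), and the anti-apoptotic relatives 0 of 2 higher and 1 lower (1 and 1 in WT). With so few genes in each list, no list was read as standing apart from all genes.

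The genes whose levels followed each member most closely across the 9 sums of class and library were listed by Pearson's r of log2(CPM + 1), out of 10465 genes. The 9 sums share 2 libraries and differ in depth, and with so few points high values occur for many genes. Bak1 was followed by Tuba4a (r = 0.996), Bax by Fis1 (0.986), Bcl2l1 by Cracr2b (0.986), Bcl2l11 by Ccdc115 (0.989), Mcl1 by Naaa (0.969), Bcl2 by Ikzf3 (0.949), Bcl2a1a by D17H6S53E (0.961), Bcl2a1b by 2900026A02Rik (0.928) and Bcl2a1d by Eno3 (0.947), which was also one of the patrolling monocyte check markers. Among the members themselves Bak1 and Bax had r = 0.87, and Bak1 and Bcl2l1 r = -0.93: the classes high in the effector were those low in BCL-XL transcript.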

How the data were processed

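The deposited matrices hold UMI counts per gene and cell barcode, made by the authors with Cell Ranger against GRCm39 (version 7.0.0 per the file headers, 6.0 per the labels' protocols), and every deposited barcode had at least 500 UMIs. Whether intronic reads were counted is not given in the sources used here. Per the labels' protocols, cells under 500 genes were removed in Seurat, and this was repeated here, with at most 10% mitochondrial UMIs, which left 7573 of 9038 Msn KO and 5577 of 5842 WT barcodes from 67575835 and 68576464 UMIs. Classes came from the marker pairs; cells passing several gates were left out, and no doublet caller was run.

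Counts were summed per class and library with Python 3.11.15, numpy 2.4.6, scipy 1.17.1 and pandas 2.3.3. With 1 library per genotype there is no test: ratios carry exact conditional binomial 95% intervals for counting error only, and a gene is called at 1.5-fold if it reached 10 CPM in either sum. A sum of 0 was set to 3 counts for the call. The ratios, their intervals and the 1.5-fold cut were tested on simulated microglial sums with known folds. Small classes, and calls on a sum of 0, were not tested in this way. All 9 members are given in every class, and from the pathway lists at most the 3 highest and 3 lowest genes past 1.5-fold between genotypes; patrolling monocyte genes of the lists were picked after their values were seen. The members and lists were chosen with earlier results of these data known. Windows and coding sequence were read from the GRCm39 reference, and promoters from RefSeq, where all 9 members matched.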

Additional observations from a re-analysis of the deposited data

How the results depend on the processing

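With 1 library per genotype no replicate could be left out, and depth limits all WT values outside microglia, where 1 UMI was worth 5.09 CPM or more. No paired analysis was possible because each genotype had 1 library. In microglia the 4 members past 1.5-fold in Msn KO over WT became 2 on plain CPM (1 higher, 1 lower), and numbered 3 to 6 under the other alternatives, with 6 over all kept cells. Bcl2a1b was past 1.5-fold in 14 of 14 alternatives, Bcl2a1a and Bax in 13, and Bcl2a1d in 8. In the other classes, 10 member values between genotypes were past 1.5-fold (7 to 15 under the alternatives). Measured members numbered 8 in patrolling monocytes, 7 in classical monocytes and 9 in border macrophages. Of all genes there, 23 to 24.9% were higher and 26.6 to 31.7% lower. Of the values over microglia 44 of 63 were past 1.5-fold (36 to 48), beside 16.8 to 27.4% of all genes higher and 26.2 to 45.1% lower. Neither count was read as standing apart from all genes. The members' microglial state values past 1.5-fold numbered 12, all higher, but 4 with the top 10% of cells and 20 after thinning to 2000 UMIs (13 higher, 7 lower). Without cells of 15000 or more UMIs they were 12 (10 higher, 2 lower). Shares of cells at 25% or more numbered 26 over genes, classes and libraries, 16 with thinning to 1000 UMIs and 40 with none, since a share follows depth. Of 1110 single values under the alternatives 1010 stayed within the interval of the reported one, and 1 that was called reversed: Bax in border macrophages, with a log2 ratio of Msn KO over WT of 0.61, was at -0.11 after thinning, and the cause was not tested. The alternatives without other cells' markers, with stricter border and NK gates, and all of those for levels were chosen after seeing the data.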
